A study of Mus musculus with 6 samples.

Results

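The enzymes and helper proteins that process and crosslink collagen were examined in whole mouse lungs at E11.5dpc (embryonic stage in days post coitus), when the main branches of the lung form. The set holds 10 genes chosen by name, Serpinh1, P4ha1, P4ha2, Plod1, Plod2, Plod3, Lox, Loxl1, Loxl2 and Pcolce, of 23420 genes in the table, and all 10 were found and passed the filter on low values. RNA came from 3 pools of Rptor f/f; Shh Cre/+ lungs (mutant) and 3 pools of control lungs with Shh Cre/+, each made from 3 or 4 lungs of the same genotype. The paper names Rptor f/+ littermates with Shh Cre/+ as controls for a later stage. For this stage a supplementary figure labels the control Shh Cre/+, so whether these controls carried a floxed allele is not clear. If they carried 1, the control epithelium could also have lost 1 copy of Rptor, which encodes the Raptor subunit of mTORC1. Shh Cre acts in the lung epithelium, and the mesenchyme around it keeps its Rptor alleles. Whole lungs were sequenced, so that fewer cells of a type and less RNA per cell cannot be told apart.

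Collagen chains are modified in the endoplasmic reticulum before they leave the cell. Prolyl 4-hydroxylases, whose catalytic subunits include P4ha1 and P4ha2, make the hydroxyproline that keeps the triple helix stable, lysyl hydroxylases (Plod1, Plod2 and Plod3) hydroxylate lysines, and Serpinh1 (HSP47) is a chaperone that binds the folded helix. Outside the cell Pcolce enhances the removal of the C-propeptide, and the lysyl oxidases Lox, Loxl1 and Loxl2 oxidise lysines of collagen and elastin so that crosslinks form. In the developing lung the fibrillar collagens are mainly made by mesenchymal cells. For brevity the whole set is called the enzymes below, although Serpinh1 is a chaperone and Pcolce an enhancer.

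Values are normalized counts, that is, the reads of a gene divided by a size factor of its library. Whole reads were recovered for all 6 libraries, which held 20197642 to 21276090 reads in genes, and each of the 10 enzymes had between 431 and 32174 reads in a library. log2(normalized count + 1) was compared between mutant and control pools with limma over the 17168 genes that reached a normalized count of 1 in 3 or more libraries, and p-values were adjusted over all of them by the Benjamini-Hochberg method. Of these genes, 86 had an adjusted p under 0.05, 32 higher and 54 lower in the mutant pools. Scaling each library to lung mesenchyme marker genes gave 5 higher and 78 lower. Rptor was 2199 ± 77.0 (SD, n = 3) in control and 2103 ± 69.1 (SD, n = 3) in mutant pools (log2 fold change -0.06, limma adjusted p = 0.584). The count covers the whole gene in all cells of the lung. log2 Xist, a gene read from the inactive X chromosome of female cells, was 12.17, 8.28 and 13.67 in control pools 1 to 3 and 5.42, 8.87 and 7.34 in mutant pools 1 to 3, so its level differed widely between pools and was higher in control pools 1 and 3 than in any mutant pool. Nothing in the labels says whether the pools came from different litters, and p-values measure the spread between these pools. The paper states that it pooled mutants of several litters for its statistics, without saying how the pools here were made up by litter.

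Promoter sequences of 6 of the 10 genes were taken from the RefSeq table of GRCm38.p6 (Serpinh1, P4ha1, P4ha2, Plod1, Plod3 and Pcolce). Those of Plod2, Lox, Loxl1 and Loxl2 were not searched. The 250 bases before the RefSeq transcript start, 5′ to 3′ on the strand of the gene, are given for 4 genes. Serpinh1 and Plod1 are shown as genes with every mutant pool above every control pool. Pcolce also had this, but its window, in which a Pcolce exon lies, is not printed. The prolyl hydroxylases P4ha1 and P4ha2 are shown because their mutant values lay within or below the control range. Plod3 also had mutant values within the control range, but its window, in which a Znhit1 exon lies, is not printed. Capitals mark ACGTG or GCGTG on either strand (read as CACGT or CACGC on the other), the core letters of the hypoxia response element bound by the HIF factors.
Serpinh1: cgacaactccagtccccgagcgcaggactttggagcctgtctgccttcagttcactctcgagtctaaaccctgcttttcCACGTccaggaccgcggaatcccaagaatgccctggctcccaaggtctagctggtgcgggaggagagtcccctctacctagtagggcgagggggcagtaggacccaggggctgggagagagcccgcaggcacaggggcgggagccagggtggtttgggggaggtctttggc
Plod1: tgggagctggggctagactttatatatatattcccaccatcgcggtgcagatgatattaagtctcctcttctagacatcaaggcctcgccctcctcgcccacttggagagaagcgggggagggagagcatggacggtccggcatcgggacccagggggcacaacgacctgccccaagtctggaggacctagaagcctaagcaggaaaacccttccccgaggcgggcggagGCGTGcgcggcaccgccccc
P4ha1: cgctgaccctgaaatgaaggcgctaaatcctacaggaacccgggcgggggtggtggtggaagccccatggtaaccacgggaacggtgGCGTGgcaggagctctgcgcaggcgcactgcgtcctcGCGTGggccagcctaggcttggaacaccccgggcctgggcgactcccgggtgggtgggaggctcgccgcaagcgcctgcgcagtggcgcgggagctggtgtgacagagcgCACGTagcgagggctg
P4ha2: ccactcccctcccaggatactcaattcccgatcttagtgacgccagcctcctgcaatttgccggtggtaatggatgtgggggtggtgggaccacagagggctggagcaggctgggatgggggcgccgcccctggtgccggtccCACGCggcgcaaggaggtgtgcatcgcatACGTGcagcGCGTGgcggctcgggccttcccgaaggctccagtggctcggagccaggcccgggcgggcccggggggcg
The windows are chr7:99353240-99353489 (minus strand) for Serpinh1, chr4:147936777-147937026 (minus strand) for Plod1, chr10:59323046-59323295 (plus strand) for P4ha1 and chr11:54100674-54100923 (plus strand) for P4ha2. The P4ha2 window lies inside the span of the GENCODE gene, whose outermost start is further upstream. No GENCODE exon lies in these windows. The core letters occurred once each in Serpinh1 and Plod1 and 3 times each in P4ha1 and P4ha2. In the windows not printed they occurred 1 time in Pcolce and 4 times in Plod3. A link between their number and the fold changes was not tested. All 6 promoters searched held them, as did 38.6% of the 32851 promoters in the table. GGGCGG, the GC box, was in 5 of the 6 and in 32.7% of all promoters, CCAAT was in 1 (Plod3) and in 33.8%, and TATAAA was in 1 (Plod1) and in 12.4%. The 6 windows had a GC content of 55.6% to 70.0%, against a median of 52.4% over all promoters. A match of these letters is a description of the sequence.

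Over the 10 genes, 0 had an adjusted p under 0.05, against 0.501% of all tested genes. With limma's unadjusted p under 0.05, 4 genes were higher in the mutant pools (Serpinh1, Plod1, Lox and Loxl1) and 0 were lower, against 6.67% of all tested genes higher and 6.89% lower. All 3 mutant pools lay above all 3 control pools for 3 genes (Serpinh1, Plod1 and Pcolce), against 9.77% of tested genes, and below them for 0 genes, against 10.5%. The median log2 fold change was 0.07 over the 10 genes and -0.00 over all tested genes, and 6 of the 10 were above 0, as were 49.5% of tested genes. These counts and the median depend on the scaling. With each library scaled to the lung mesenchyme markers, 0 of the 10 genes were higher and 2 were lower (P4ha2 and Plod2) at an unadjusted p under 0.05, and the median was -0.01 over the 10 genes and -0.08 over all tested genes. The share of all tested genes at that level is not given for this scaling, so these counts are not read as a result about the enzymes. Only Plod3 turned in sign with it (-0.038).

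**Figure D1:**
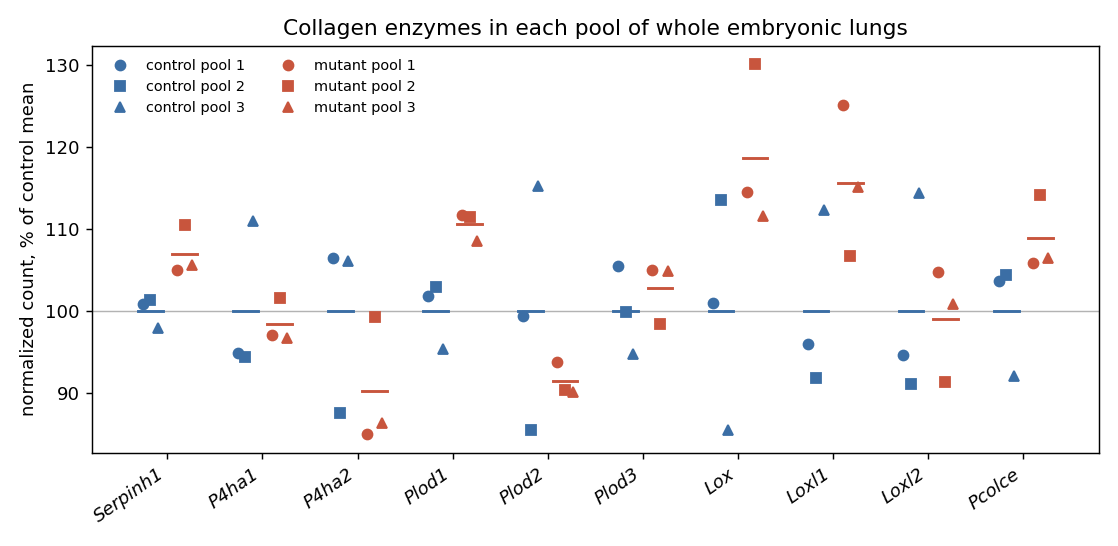
Normalized count of each enzyme in each pool as a percent of its control mean (y axis), with control pools in blue, mutant pools in red, the pool number given by the symbol, and lines at the group means. Serpinh1, Plod1 and Pcolce have every mutant pool above every control pool, while control pool 3 (blue triangle) is 115% of the control mean for Plod2 and 85.5% for Lox.

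Serpinh1, the collagen chaperone, lies on chromosome 7 from 99345376 to 99353239 (GRCm38, minus strand). Its normalized count was 28785, 28949 and 27942 in control pools 1 to 3 and 29969, 31545 and 30138 in mutant pools 1 to 3. Every mutant pool was above every control pool, and the group means were 28559 ± 540 and 30551 ± 865 (SD, n = 3 each), a difference of 6.97%. The log2 fold change was 0.10 (standard error 0.04, 95% interval 0.01 to 0.18, limma adjusted p = 0.303), so the difference did not pass the test over all genes.

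Among the prolyl 4-hydroxylases, P4ha1 (chromosome 10 from 59323296 to 59373304) had normalized counts of 1603, 1595 and 1876 across the control pools and 1641, 1717 and 1635 across the mutant pools. The mutant values all lay inside the control range, and the log2 fold change was -0.02 (standard error 0.06, 95% interval -0.16 to 0.12, limma adjusted p = 0.924). P4ha2 (chromosome 11 from 54100095 to 54131665) had 552, 454 and 550 across the control pools and 440, 515 and 448 across the mutant pools. Mutant pools 1 and 3 were below every control pool and mutant pool 2 was not, and the log2 fold change was -0.15 (standard error 0.10, 95% interval -0.36 to 0.07, limma adjusted p = 0.54). The interval of P4ha2 thus reaches further below 0 than that of P4ha1. Set against P4ha1 within each pool, P4ha2 had a log2 ratio of -1.71 ± 0.15 in control and -1.83 ± 0.09 in mutant pools (SD, n = 3 each; two-sided exact permutation test, p = 0.3, adjusted over 17 ratios 0.364).

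The lysyl hydroxylases did not all differ in the same direction. Plod1 (chromosome 4 from 147909753 to 147936767), which acts on lysines of the collagen helix, had normalized counts of 1582, 1598 and 1481 across the control pools and 1736, 1732 and 1685 across the mutant pools. The groups did not overlap, and the difference of the means was 10.6% (log2 fold change 0.15, standard error 0.05, 95% interval 0.04 to 0.25, limma adjusted p = 0.210). Plod2 (chromosome 9 from 92542223 to 92608428), the lysyl hydroxylase of the collagen telopeptides, had 1710, 1469 and 1982 across the control pools and 1613, 1555 and 1551 across the mutant pools. Its control pools spread widely around the mutant pools, with a coefficient of variation of 14.9% in control and 2.22% in mutant pools. The log2 fold change of Plod2 was -0.12 (standard error 0.09, 95% interval -0.32 to 0.08, limma adjusted p = 0.606), and it was -0.01 without control pool 3 and -0.23 without control pool 2. Plod3 (chromosome 5 from 136987019 to 136996648), which also adds sugars to hydroxylysine, had 1793, 1697 and 1609 across the control pools and 1785, 1673 and 1782 across the mutant pools. Its groups overlapped (log2 fold change 0.04, standard error 0.05, 95% interval -0.08 to 0.16, limma adjusted p = 0.786). Of the 4519 exon bases of Plod3, 529 overlap Znhit1 on the opposite strand (mean normalized count 972). The strand setting of the read counting is not given in the sources used here, so reads from the shared bases could have been given to either gene.

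Within a pool, the log2 ratio of Plod3 to Plod1 was 0.18, 0.09 and 0.12 across the control pools and 0.04, -0.05 and 0.08 across the mutant pools. All 3 mutant values lay below the control values, though mutant pool 3 (0.08) and control pool 2 (0.09) were close. The difference was -0.11 (two-sided exact permutation test, p = 0.1, the smallest value that 3 pools against 3 can give, adjusted p = 0.155). The ratio of Plod2 to Plod1 differed by -0.26 (exact permutation p = 0.3, adjusted p = 0.364) and that of Plod2 to Plod3 by -0.16 (exact permutation p = 0.5, adjusted p = 0.531), and both overlapped between the groups.

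Among the lysyl oxidases, Lox (chromosome 18) had normalized counts of 3188, 3587 and 2701 across the control pools and 3616, 4108 and 3523 across the mutant pools. Mutant pools 1 and 2 were above every control pool, and mutant pool 3 was below control pool 2. The means were 3159 ± 444 and 3749 ± 315 (SD, n = 3 each), a difference of 18.7% (log2 fold change 0.25, standard error 0.09, 95% interval 0.05 to 0.46, limma adjusted p = 0.263). The log2 fold change of Lox was 0.145 without control pool 3, 0.35 without control pool 2 and 0.10 with log2 Xist as a covariate, and the cause was not tested. Loxl1 (chromosome 9 from 58287738 to 58313186), which is known for its part in elastic fibres, had 904, 864 and 1057 across the control pools and 1177, 1004 and 1084 across the mutant pools. Control pool 3 was above mutant pool 2, and the other control pools were below every mutant pool. The log2 fold change of Loxl1 was 0.21 (standard error 0.08, 95% interval 0.03 to 0.40, limma adjusted p = 0.303). Without control pool 3 it was 0.30 and passed the test (limma adjusted p = 0.0315). In that fit 468 of 16993 tested genes passed, against 86 of 17168 with all pools. Loxl2 (chromosome 14 from 69609068 to 69695834), an oxidase with scavenger receptor domains, had 2231, 2147 and 2697 across the control pools and 2469, 2154 and 2376 across the mutant pools. The mutant values of Loxl2 lay inside the control range (log2 fold change -0.01, standard error 0.08, 95% interval -0.20 to 0.17, limma adjusted p = 0.969).

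Loxl1 and Loxl2 ordered the pools of each group in the same way, and of the 7 ratios between related enzymes theirs had the smallest SD in the control pools. The log2 ratio of Loxl1 to Loxl2 was -1.30, -1.31 and -1.35 across the control pools and -1.07, -1.10 and -1.13 across the mutant pools. Every mutant pool was above every control pool, and the means of -1.32 ± 0.03 and -1.10 ± 0.03 (SD, n = 3 each) differed by 0.22, or 16.6% in the ratio. The exact permutation test gave p = 0.1, its smallest possible value, and an adjusted p of 0.155, so 3 pools against 3 cannot pass a threshold of 0.05 here. Ratios to Lox were far more spread in control pools, with -1.74 ± 0.36 for Loxl1 to Lox and -0.42 ± 0.38 for Loxl2 to Lox (SD, n = 3). They differed between the groups by -0.04 (exact permutation p = 1) and -0.26 (exact permutation p = 0.4, adjusted p = 0.453), and both overlapped. The difference for Loxl2 to Lox was -0.055 without control pool 3 and -0.425 without control pool 2, where the groups did not overlap.

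Pcolce, the enhancer of procollagen C-proteinase (chromosome 5 from 137605103 to 137613784), had normalized counts of 2419, 2436 and 2149 across the control pools and 2472, 2665 and 2486 across the mutant pools. The groups did not overlap, but mutant pool 1 and control pool 2 were 2472 and 2436. The difference of the means was 8.83% (log2 fold change 0.12, standard error 0.06, 95% interval -0.00 to 0.25, limma adjusted p = 0.383). The log2 fold change was 0.065 without control pool 3 and 0.045 with the scaling to mesenchyme markers.

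**Figure D2:**
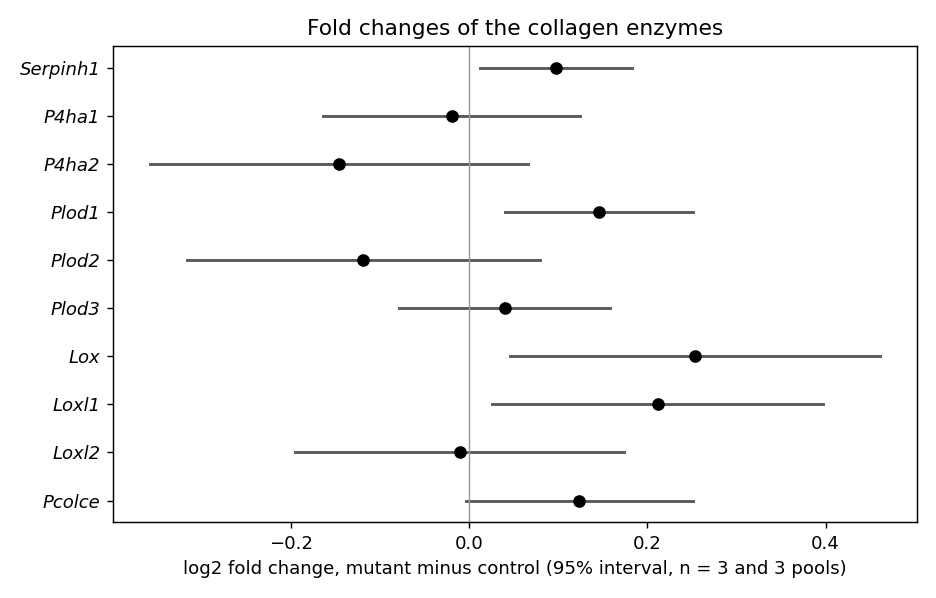
log2 fold change of each enzyme between mutant and control pools (points) with its 95% interval from limma (lines), n = 3 pools in each group. The intervals of Serpinh1, Plod1, Lox and Loxl1 lie above 0, those of the other 6 enzymes include 0, and none of the 10 passed the adjustment over all genes.

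Levels can be compared between genes only per length, here as normalized counts per kb of exon (GENCODE M21). The length merges the exons of all annotated transcripts of a gene. The order of the genes depends on this choice, and lengths of single transcripts were not tried. In the control pools Serpinh1 was far above the others at 11690 ± 221 per kb (SD, n = 3), followed by Lox with 661 ± 92.9 and Pcolce with 611 ± 42.1. Lox and Pcolce overlapped over the control pools, and both were apart from Loxl2, the next in order with 436 ± 54.8. Loxl2, P4ha1 (411 ± 38.8), Plod3 (376 ± 20.3), Plod2 (319 ± 47.6) and Loxl1 (286 ± 30.9) each overlapped with the next in this order. Plod1 (230 ± 9.40) was below the control range of Loxl1, and P4ha2 was the lowest at 83.1 ± 9.01. The catalytic subunit P4ha1 was thus present at a higher level per length than P4ha2 in every pool.

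**Figure D3:**
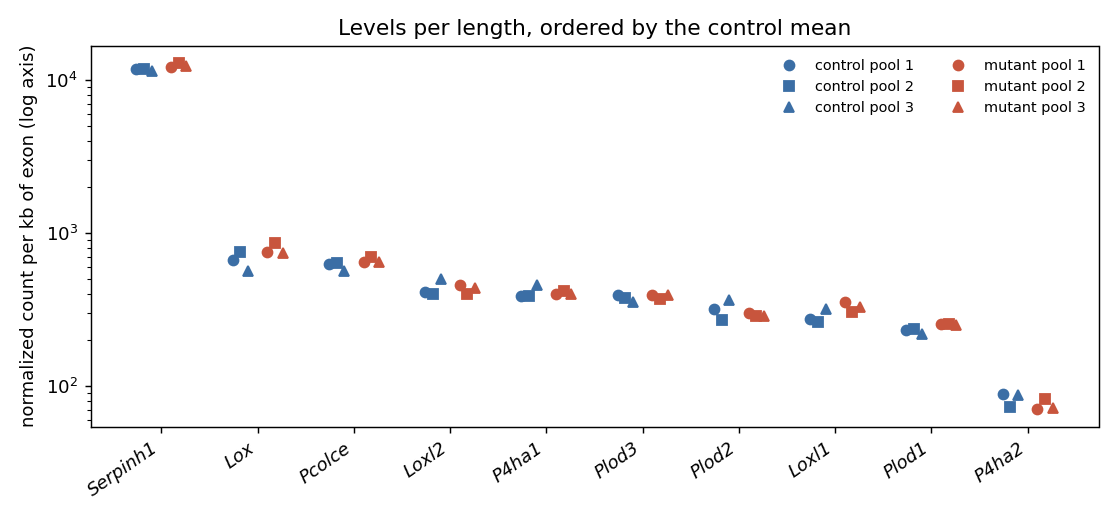
Normalized counts per kb of exon (log y axis) of the 10 enzymes in each control (blue) and mutant (red) pool, ordered by the control mean. Serpinh1 is at 11690 per kb in control pools, the other 9 enzymes lie between 83.1 and 661, and the difference between the groups is small beside that between the genes.

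The control pools differed more among themselves than the mutant pools did. For 9 of the 10 enzymes the coefficient of variation was larger in control than in mutant pools, and over the 11458 genes with a mean of at least 100 its median was 5.70% in control and 3.96% in mutant pools. Control pool 3 was the highest control pool for 4 enzymes (P4ha1, Plod2, Loxl1 and Loxl2) and the lowest for 5 (Serpinh1, Plod1, Plod3, Lox and Pcolce). Over all 6 pools it was the highest for 3 (P4ha1, Plod2 and Loxl2) and the lowest for 5, against 25.4% and 24.0% of all tested genes. P4ha1, P4ha2, Plod2, Lox and Loxl2 are known to be induced through HIF in low oxygen, as are many glycolytic genes. Among these enzymes P4ha1, Plod2 and Loxl2 had their highest value in control pool 3. P4ha2 had it in control pool 1, and Lox had its lowest value in control pool 3. Of 21 listed HIF targets, 14 had their highest value in control pool 3, beside the 25.4% of all tested genes. In the comparison of the groups 1 of the 21 was higher (Ddit4, log2 fold change 0.21) and 5 were lower at limma's unadjusted p under 0.05, and 0 passed the adjustment, while with log2 Xist as a covariate 1 was higher, 0 were lower and the median of the list turned from -0.06 to 0.05. Of the lower ones, Ldha (-0.27), Aldoa (-0.23), Pgk1 (-0.22) and Hk2 (-0.17), all of glycolysis, had the lowest p-values. The part of this pool difference in the values of the enzymes was not tested.

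Several fibrillar collagens, the main substrates of the enzymes, were higher in the mutant pools. Col1a1, a chain of type I collagen, had normalized counts of 18948, 21042 and 19410 across the control pools and 25994, 30254 and 27237 across the mutant pools, and it rose by 0.49 on the log2 scale (standard error 0.06, limma adjusted p = 0.0125). Of 11 fibrillar collagen genes, 3 rose at the adjusted threshold, the others being Col1a2 (0.34, limma adjusted p = 0.0128) and Col3a1 (0.26, limma adjusted p = 0.0470). At an unadjusted p under 0.05, 7 were higher, including Col5a1 (0.17), and 1 was lower, Col27a1 (-0.18), and the median over the 11 genes was 0.18. With the scaling to mesenchyme markers the median was 0.10 and Col1a1 (0.41, limma adjusted p = 0.0560), Col1a2 (0.26, 0.152) and Col3a1 (0.19, 0.314) no longer passed. With log2 Xist as a covariate their adjusted p-values in limma were 0.0516, 0.0818 and 0.268. Of 6 collagen IV genes of the basement membrane, Col4a1 (0.09) and Col4a2 (0.10) were higher at an unadjusted p under 0.05, and with the mesenchyme scaling the median of the 6 turned from 0.07 to -0.01.

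When each enzyme was set against Col1a1 within its own pool, which makes the value independent of the size factor, the log2 ratio was lower in the mutant pools for all 10. The differences were -0.39 for Serpinh1, -0.51 for P4ha1, -0.64 for P4ha2, -0.34 for Plod1, -0.61 for Plod2, -0.45 for Plod3, -0.24 for Lox, -0.28 for Loxl1, -0.50 for Loxl2 and -0.37 for Pcolce. With Col1a1, for 9 of the 10 the mutant pools all lay below the control pools (exact permutation p = 0.1 each, the smallest possible, adjusted p = 0.155), and Loxl1 overlapped (exact permutation p = 0.2, adjusted p = 0.283). Lox was the closest of the 9, with -2.57, -2.55 and -2.85 across the control pools and -2.85, -2.88 and -2.95 across the mutant pools. Of all tested genes, 71.7% also had every mutant pool below every control pool when set against Col1a1, so the pattern is shared with most genes. For each of the 10 the difference was smaller against other collagens, which were chosen as denominators after seeing the data. Those of Lox were -0.08 against Col1a2, -0.01 against Col3a1 and -0.05 against the sum of the listed fibrillar collagens, and its groups then overlapped (exact permutation p = 0.5, 1 and 0.7). Loxl1 was at -0.05 against Col3a1 (exact permutation p = 0.8), and Loxl2, at -0.27, also overlapped there (exact permutation p = 0.2). Serpinh1 was at -0.17 and Plod1 at -0.12 against Col3a1, with no overlap (exact permutation p = 0.1 each, the smallest possible). The share of all tested genes without overlap is given only for Col1a1, so this is not read as a result about the enzymes.

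Of 33 other genes of collagen processing and secretion, all tested, 1 passed the adjusted threshold. Fkbp14, a prolyl isomerase of the endoplasmic reticulum, rose by 0.36 on the log2 scale (limma adjusted p = 0.0398), with normalized counts of 529, 522 and 541 across the control pools and 664, 718 and 664 across the mutant pools. At an unadjusted p under 0.05, 10 of the 33 were higher and 0 were lower, beside the 6.67% and 6.89% of all tested genes, and the median was 0.08. With the scaling to mesenchyme markers 3 were higher, the median was 0.01, and Fkbp14 (0.28, limma adjusted p = 0.132) did not pass, as it did not with log2 Xist as a covariate (0.42, limma adjusted p = 0.102). The lowest p-values after Fkbp14 were those of Fkbp7 (0.38, limma adjusted p = 0.0661), Fkbp10 (0.19, limma adjusted p = 0.0922), P3h3 (0.17, listed as Leprel2, limma adjusted p = 0.141) and Sparc (0.14, limma adjusted p = 0.153). Fkbp7 and Fkbp10 belong to the same isomerase family, P3h3 to the prolyl 3-hydroxylases, and Sparc encodes a collagen-binding matrix protein.

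Among 14 elastic fibre genes, whose products include substrates and partners of the lysyl oxidases, Ltbp4 rose by 0.43 (limma adjusted p = 0.00728). Another 4 were higher at an unadjusted p under 0.05, Emilin1 (0.20), Mfap2 (0.16), Fbln2 (0.31) and elastin itself, Eln (0.37), and 0 were lower. The median of the 14 was 0.105. With the scaling to mesenchyme markers 4 were higher, 0 were lower and the median was 0.027, and with log2 Xist as a covariate 4 were higher, 1 was lower and the median was 0.175. Ltbp4 passed in both (limma adjusted p = 0.0354 and 0.0234). Eln had normalized counts of 2145, 1865 and 2420 across the control pools and 3121, 2219 and 3000 across the mutant pools. Mutant pool 2 was the lowest mutant pool for Eln, Fbln2 and Loxl1. It was also the lowest mutant pool for Loxl2, Plod3, Fn1 and the globin gene Hbb-y. It was the highest for Efemp2 and Mfap5 and, among the enzymes, for Serpinh1, P4ha1, P4ha2, Lox and Pcolce. The share of all tested genes with this pool lowest is not given. Of 12 genes that respond to or encode TGF-beta, a known inducer of collagen and Lox, Tgfb1 (0.26, limma adjusted p = 0.0710) and Tgfb3 (0.28) were higher and Thbs1 (-0.25) was lower at an unadjusted p under 0.05, and the median was 0.00 (-0.08 with the mesenchyme scaling).

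Cell type markers also differed between the groups. Of 20 epithelial markers, 17 were lower and 1 higher at an unadjusted p under 0.05, 8 of them lower at the adjusted threshold, and their summed normalized count was 20959 to 25270 in control and 16635 to 18018 in mutant pools. Cdh1 (-0.97, limma adjusted p = 0.00728) had the lowest p of these. The sum over 20 lung mesenchyme markers was 74579 to 77149 in control and 80022 to 82482 in mutant pools, with 6 higher and 1 lower at an unadjusted p under 0.05, and Vim (0.17) had the lowest p. Summed over the 10 enzymes, the count was 44043 to 44796 in control and 46708 to 48668 in mutant pools. Serpinh1 made up 63.4% to 64.8% of that sum.

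At an unadjusted p under 0.05, the lists for other cells had 4 of 8 mesothelial markers higher (Wt1, 0.31, at the adjusted threshold), 4 of 10 for smooth muscle and pericytes (Des, 0.20), 6 of 10 endothelial (Tie1, 0.27) and 3 of 8 for cartilage (Col9a2, 0.46, at the adjusted threshold), with 0 lower in each. With the scaling to mesenchyme markers the higher ones were 2 mesothelial, 2 smooth muscle and pericyte (with 1 lower), 0 endothelial and 2 cartilage markers. With log2 Xist as a covariate they were 3, 2, 0 and 3, and with neither did a marker of these lists pass the adjusted threshold. Of 8 cardiac muscle markers, 2 were lower (Myh6, -1.30), and 0 of 6 erythroid (Hbb-y, 0.07) and 0 of 8 macrophage markers (C1qa, 0.23) passed. The part of these cell types in the values of the enzymes was not tested.

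**Figure D4:**
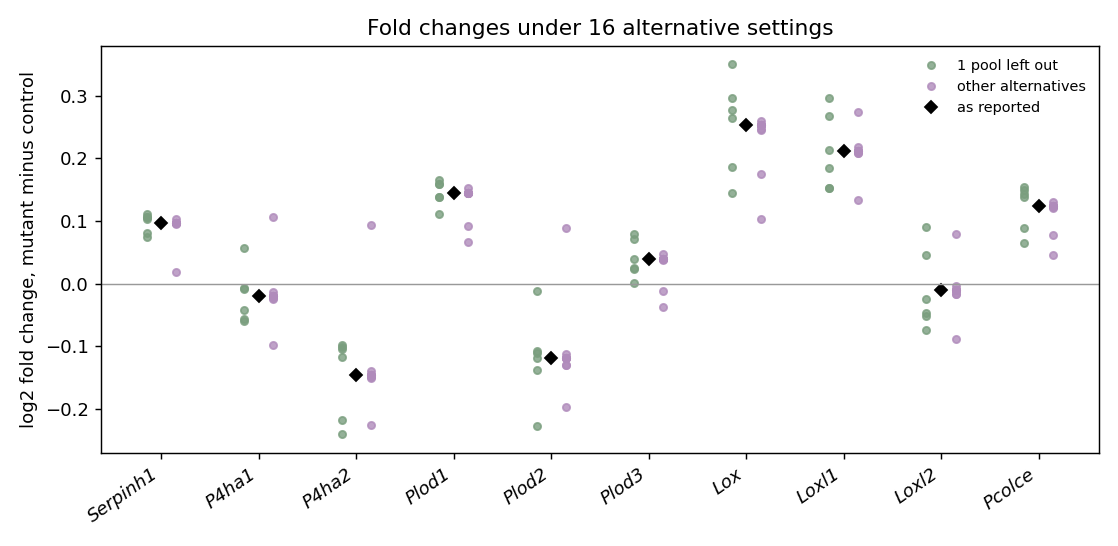
log2 fold change of each enzyme (y axis) as reported (black diamonds), with 1 pool left out (green points) and under the other alternatives (purple points), 16 settings in all. Serpinh1, Plod1, Lox, Loxl1 and Pcolce stay above 0 in all 16, and P4ha1, P4ha2, Plod2, Plod3 and Loxl2 cross 0 in at least 1.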

How the data were processed

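Bulk RNA-Seq of whole lungs at 11.5 dpc was deposited as 1 table of 6 libraries, 3 control and 3 mutant pools, assigned from the sample titles in the labels. The deposited signal values are normalized counts, for which the authors divided reads by a size factor per library. The submitters' processing notes name Trim Galore, HISAT2, featureCounts, DESeq2 and the mm10 build, with versions not given in the sources used here. Columns with the authors' own comparison (log2 fold changes, standard errors, a test score and p-values) and their mean column were not used. Dates stand in place of 27 gene symbols.

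In each library 100% of the values were whole multiples of 1 step (within 0.01 read), which gave the reads. limma 3.58.1 in R 4.3.3 (lmFit, eBayes with trend) was run on log2(normalized count + 1), a scale that understates the change of low genes, with a threshold of 0.05 and no replicate block. Genes were kept if 3 or more libraries reached a value of 1. The alternatives were limma without trend, upper-quartile (75th percentile) or mesenchyme marker scaling, a minimum of 10 in every library or no filter, 0.1 as pseudocount, log2 Xist as a covariate, a replicate block, and leaving out each pool. edgeR 4.0.16 (quasi-likelihood, TMM) and DESeq2 1.42.0 were also run on the recovered reads, and limma, edgeR and DESeq2 were tested on simulated data. Ratios were tested with a two-sided exact permutation test, adjusted over 17 ratios. Exon lengths and coordinates are from GENCODE M21, and older symbols were matched through RefSeq tables.

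The enzymes and gene lists were chosen with earlier results of these data known. All 10 enzymes are named. Of each other list, genes with an adjusted p under 0.05 and up to 5 with the lowest p under 0.05 are named, and of each marker list the gene with the lowest p. The result of 1 marker list is not reported here. Ratios to other collagens and the overlap counts under other scalings were chosen after seeing the data.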

Additional observations from a re-analysis of the deposited data

How the results depend on the processing

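Of 160 recomputed log2 fold changes of the enzymes (16 settings for each of 10), 151 kept their sign. The number of all genes called was 86 as reported, 8 without limma's trend, 278 with DESeq2 and 1 to 468 with 1 pool left out (1 without control pool 1 or mutant pool 3, 12 without mutant pool 1, 21 without mutant pool 2, 147 without control pool 2 and 468 without control pool 3). Enzymes at an adjusted p under 0.05 were 0 in every setting but the one without control pool 3, where Loxl1 passed, so the range over left-out pools was 0 to 1. Enzymes at an unadjusted p under 0.05 were 4 as reported, 1 without the trend (Plod1), 2 with mesenchyme scaling (P4ha2 and Plod2, both lower), 1 with log2 Xist as a covariate (Loxl1) and 2 to 6 with 1 pool left out. The 2 stand for the fits without control pool 1 (Serpinh1 and Plod1), mutant pool 2 (Plod1 and Loxl1) or mutant pool 3 (Plod1 and Lox), and the 6, without control pool 2, include P4ha2 and Plod2 as lower. With mesenchyme scaling the other collagen processing genes had 3 at that level, against 10, and 1 enzyme, lower, had groups that did not overlap, against 3. The shares of all tested genes with that scaling are not given here. Signs turned for Plod3 with mesenchyme scaling (-0.038) and with Xist (-0.012), and with Xist for P4ha1 (0.107), P4ha2 (0.094), Plod2 (0.089) and Loxl2 (0.08). With 1 pool left out P4ha1 ran from -0.059 to 0.057 and Loxl2 from -0.074 to 0.09, both above 0 without control pool 3 and, for Loxl2, without mutant pool 2 (0.046). The ratio of Loxl1 to Lox ran from -0.198 to 0.152, above 0 without control pool 3 (0.152) or mutant pool 2 (0.082), and that of Loxl1 to Loxl2 from 0.21 to 0.24. Ratios to collagen kept their sign in all 110 recomputed values but were smaller against Col1a2, Col3a1 or the fibrillar sum, chosen after seeing the data, for Lox down to -0.01 with overlap of the groups. Loxl2 to Lox ran from -0.425 to -0.055, and log2 fold changes from -0.227 to -0.011 for Plod2, 0.145 to 0.35 for Lox and 0.065 to 0.155 for Pcolce with 1 pool left out. The cause was not tested.

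Same-numbered control and mutant pools deviated together with correlations of -0.032, 0.199 and 0.077, not all over 0.1, so the number was not taken to pair them. With a replicate block 71 genes were called and 5 enzymes had an unadjusted p under 0.05, Pcolce being the added one. Lox then had a log2 fold change of 0.25 and a limma adjusted p of 0.0786.

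With 3 pools in each group the 95% intervals of the enzymes were 0.17 to 0.42 wide on the log2 scale.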
